A study of Mus musculus with 12 samples.

Results

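The genes followed here mark the oligodendrocyte lineage from progenitor to myelin. They were 9 genes chosen by name, with no measured value in the rule, out of 55901 genes in the table. Olig1, Olig2, Sox10, Cspg4 and Pdgfra mark oligodendrocyte progenitor cells, Gpr17 marks the committed cells that follow, and Cnp, Mbp and Mag encode proteins of myelin. The values came from RNA-seq of cortical neurons of newborn C57BL/6J mice, cultured and pulsed on day 1 for 24 h with arabinosylcytosine, an inhibitor of DNA synthesis that removes dividing glia. All 12 libraries shared this preparation. The Control group (4 libraries) was not injured, the Trauma group (4 libraries) was scratched on day 7 of culture and collected 24 h later, and the Tra_TGF group (4 libraries) was scratched and kept for 24 h with TGF-β1 at 10 ng/mL. The labels call every sample cultured cortical neurons, and they do not say whether the 4 libraries of a group came from separate cultures or animals, so the p-values measure the spread between these libraries, which may be technical.

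Oligodendrocytes wrap axons of the brain in myelin. Their progenitors are set up by the basic helix-loop-helix factors Olig1 and Olig2 and by the HMG-box factor Sox10, which stays on through the whole lineage and drives the myelin genes. Progenitors carry the PDGF receptor Pdgfra and the chondroitin sulphate proteoglycan NG2, the product of Cspg4, and lose both as they mature. Gpr17, an orphan receptor, is switched on in between, and Cnp, Mbp and Mag follow as the cells make myelin. Several of these genes are not restricted to the lineage: Olig2 and Olig1 are also read in ventral forebrain progenitors and some astrocytes, Cspg4 and Pdgfra in perivascular cells, Sox10 and the myelin genes in Schwann cells, and the Mbp locus also makes Golli transcripts, which neurons express.

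The labels were checked against marker genes before the members were read. The libraries held 15052486 to 17381671 reads on genes. Levels are given in FPKM, a read density per gene length and library size, here rescaled between libraries, and 12 neuronal markers summed to 1794 to 1854 FPKM in Control, 1602 to 1707 in Trauma and 1553 to 1586 in Tra_TGF. Glial RNA was present in every library. The 12 astrocyte genes of a marker list, Gfap, Aqp4 and Glul among them, summed to 311 to 358 FPKM in Control, 408 to 485 in Trauma and 372 to 395 in Tra_TGF, and 12 microglial genes summed to 35.2 to 40.3, 49.1 to 59.6 and 43.8 to 49.8 FPKM. The astrocyte genes did not move alike. From Trauma to Tra_TGF the mean of Glul went from 139 to 78.0 FPKM, that of Gfap from 87.4 to 97.4 and that of Aqp4 from 17.1 to 21.5. Of 12 neuronal genes 2 rose with injury, among them the GABA-synthesising enzyme Gad1, and 3 fell (41.7% of the list, against 5.82% of all genes tested below). Most of the drop in the neuronal sum was that of the tubulin Tubb3 (means of 955, 844 and 741 FPKM in Control, Trauma and Tra_TGF). A list of 7 Schwann cell genes was mixed: Egr2 and Pmp2 had no read in any library and Foxd3 at most 1, while Ncmap had 2 to 14 reads, Prx 3 to 57, and Pmp22, which other cells also express, stood at 8.00 to 10.7 FPKM. The share of mitochondrial reads was 2.97% in Control replicate 1 and 2.12% to 2.36% in the other Control libraries, 2.17% to 2.30% in Trauma and 2.69% to 3.23% in Tra_TGF, so all Tra_TGF libraries lay above all Trauma libraries. The part of this in the differences between those groups was not tested, and the fitted results below were also computed without Control replicate 1.

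The 9 genes did not sit at one level. In the Control group Olig1 stood at 24.6 ± 1.44 FPKM (mean ± SD, n = 4), above 85.8% of the 15016 genes that could be tested, while its lineage partner Sox10 stood at 0.227 ± 0.119 FPKM on 4 to 16 reads. FPKM is a level per length, so genes can be compared with each other on it. Cnp (6.97 to 9.64 FPKM) and Olig2 (7.29 to 8.21 FPKM) came next, and their Control libraries overlapped. Mbp followed (4.43 to 5.30 FPKM), below every Cnp and Olig2 library, and then Mag (0.763 to 1.40 FPKM). The other 4 genes lay under the filter of 0.5 FPKM that was set for the fitted test. Sox10 (0.0849 to 0.339 FPKM) and Cspg4 (0.154 to 0.244 FPKM) overlapped, Pdgfra lay between 0.0323 and 0.152 FPKM, and Gpr17 between 0.0122 and 0.0562 FPKM on 1 to 5 reads. Progenitor genes were both the highest and among the lowest of the list, and the myelin genes lay between.

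Mog and Myrf, from outside the list, place these levels. Mog, a protein of the outer myelin surface, stood at 4.05 ± 1.01 FPKM in Control. Myrf, the factor that oligodendrocytes need to make myelin, stood at 0.211 ± 0.0512 FPKM (SD, n = 4 in each case). Mog, Mbp and Cnp were measured at several FPKM in libraries in which Sox10, Myrf and Gpr17 were each below 0.5 FPKM.

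**Figure D1:**
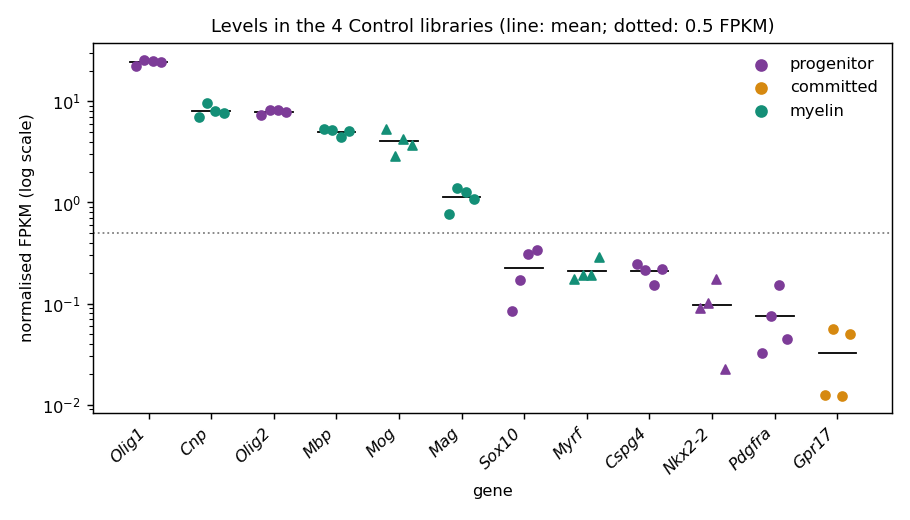
Level of each gene in the 4 Control libraries (y axis, normalised FPKM, log scale; points are libraries, circles the 9 genes of the list, triangles Mog, Myrf and Nkx2-2, lines the means). Olig1 stands highest at 24.6 FPKM, and Sox10, Cspg4, Pdgfra and Gpr17 lie under the dotted line at 0.5 FPKM.

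Of the 9 genes, Olig1, Olig2, Cnp, Mbp and Mag passed the filter and entered the fit of all 15016 genes (limma on log2 of FPKM plus 0.1, Benjamini-Hochberg adjusted p at most 0.05 over all genes). The first comparison asked what scratch injury did. After 24 h Olig1, Cnp and Mbp were higher in Trauma than in Control, each by 36.6% to 39.3%, while Olig2 and Mag did not pass. That is 3 of the 5 genes fitted, all 3 upward, where 5.82% of all genes tested were called (3.5% higher and 2.32% lower). The direction of the calls over all genes moved with scaling, from 526 higher and 348 lower to 655 and 223 with libraries scaled to equal total reads, and the 3 members were called upward under that scaling as well. The median log2 fold change of the 5 genes was 0.45, against -0.0024 over all genes tested. In bulk RNA, more cells of a type and more RNA per cell cannot be told apart.

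Olig1 (ENSMUSG00000046160) is a gene of a single exon on chromosome 16 of GRCm38, from 91269772 to 91271933 on the plus strand. It read 22.6, 26.0, 25.1 and 24.6 FPKM in Control, 32.4, 39.0, 32.0 and 32.8 in Trauma, and 37.0, 32.3, 34.4 and 32.8 in Tra_TGF, on 754 to 1472 reads. Every injured library, with or without TGF-β1, lay above every Control library, and Trauma and Control did not overlap in 12.8% of all genes tested. The rise from Control to Trauma was 38.3% (log2 fold change 0.47 with a standard error of 0.069, limma adjusted p = 0.0021). Trauma replicate 2 lay apart from the others of its group, and without it the log2 fold change was 0.40 (limma adjusted p = 0.0038). The antisense gene Gm15966 shares 157 bases of exon with Olig1. The library kit is not stated to keep strand, and neither is how reads over shared bases were assigned. Reads of Gm15966 there cannot be told from those of Olig1, but Gm15966 itself was listed at no more than 0.110 FPKM.

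Olig2 (ENSMUSG00000039830), the paralogue of Olig1 that specifies the lineage, lies on the same strand 41094 bases before it, from 91225457 to 91228677, in 2 exons. It read 7.29, 8.21, 8.13 and 7.79 FPKM in Control, 7.30, 6.82, 7.45 and 7.07 in Trauma, and 6.64, 6.31, 7.51 and 7.13 in Tra_TGF, on 248 to 356 reads. The groups overlapped, and the log2 fold change from Control to Trauma was -0.13 (95% interval -0.27 to 0.0033, limma adjusted p = 0.27). The pair of neighbours therefore had estimates of opposite sign.

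Since both genes were read in the same library, their ratio does not depend on how libraries are scaled. Olig1 over Olig2 was 3.10, 3.16, 3.09 and 3.16 in the 4 Control libraries. It was 4.45, 5.72, 4.30 and 4.64 in Trauma and 5.58, 5.13, 4.59 and 4.60 in Tra_TGF. The SD of the log2 ratio was 0.0185 in Control, 0.185 in Trauma and 0.137 in Tra_TGF. The small Control SD, from 4 libraries, was not taken as the precision of the ratio. All 8 injured libraries lay above the Control libraries. On the log2 scale the ratio rose by 0.60 from Control to Trauma (exact permutation test, two-sided, p = 0.0286, which is the lowest value that 4 against 4 libraries can give). In all, 3 ratios were compared in 9 comparisons, chosen after the values were seen, and over these the adjusted p is 0.0514.

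Cnp (ENSMUSG00000006782), which encodes a phosphodiesterase of myelin and of the oligodendrocyte cytoskeleton, lies on chromosome 11 from 100574904 to 100591729 on the plus strand. It read 6.97, 9.64, 7.97 and 7.76 FPKM in Control and 10.7, 11.2, 11.4 and 11.6 in Trauma. In Tra_TGF it read 8.67, 8.77, 8.65 and 8.26. Trauma was above every library of both other groups, which overlapped each other. Tra_TGF and Trauma did not overlap in 22.3% of all genes tested. The rise with injury was 39.3% (log2 fold change 0.48 with a standard error of 0.078, limma adjusted p = 0.0041). Cnp shares 154 bases of exon, 4.23% of its length, with Dnajc7 on the other strand, which was read at 24.2 to 28.0 FPKM. How reads over shared bases were assigned is not stated, so some may belong to Dnajc7 or have been left uncounted.

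Mbp (ENSMUSG00000041607), the protein that compacts myelin, read 5.30, 5.26, 4.43 and 5.12 FPKM in Control. In Trauma it read 6.43, 7.39, 6.90 and 6.87, and in Tra_TGF 6.37, 6.55, 6.08 and 5.48. The lowest injured library was above the highest Control library. Mbp was 36.6% higher in Trauma than in Control (log2 fold change 0.45 with a standard error of 0.074, limma adjusted p = 0.0042). Reads were counted per gene over 16 annotated transcripts, so myelin and Golli transcripts cannot be separated.

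Mag (ENSMUSG00000036634), the adhesion protein of the myelin face that meets the axon, lies on chromosome 7 from 30899176 to 30914873 on the minus strand. It read 0.763, 1.40, 1.26 and 1.08 FPKM in Control, 1.48, 1.34, 1.83 and 1.58 in Trauma, and 1.26, 1.48, 1.31 and 1.22 in Tra_TGF, on 48 to 131 reads. Its log2 fold change from Control to Trauma was 0.45, with a standard error of 0.17, and it did not pass (limma adjusted p = 0.16). The size of the estimate rested on Control replicate 1, the lowest library, without which it was 0.30 (limma adjusted p = 0.28). Control and Trauma overlapped in a single pair of libraries.

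**Figure D2:**
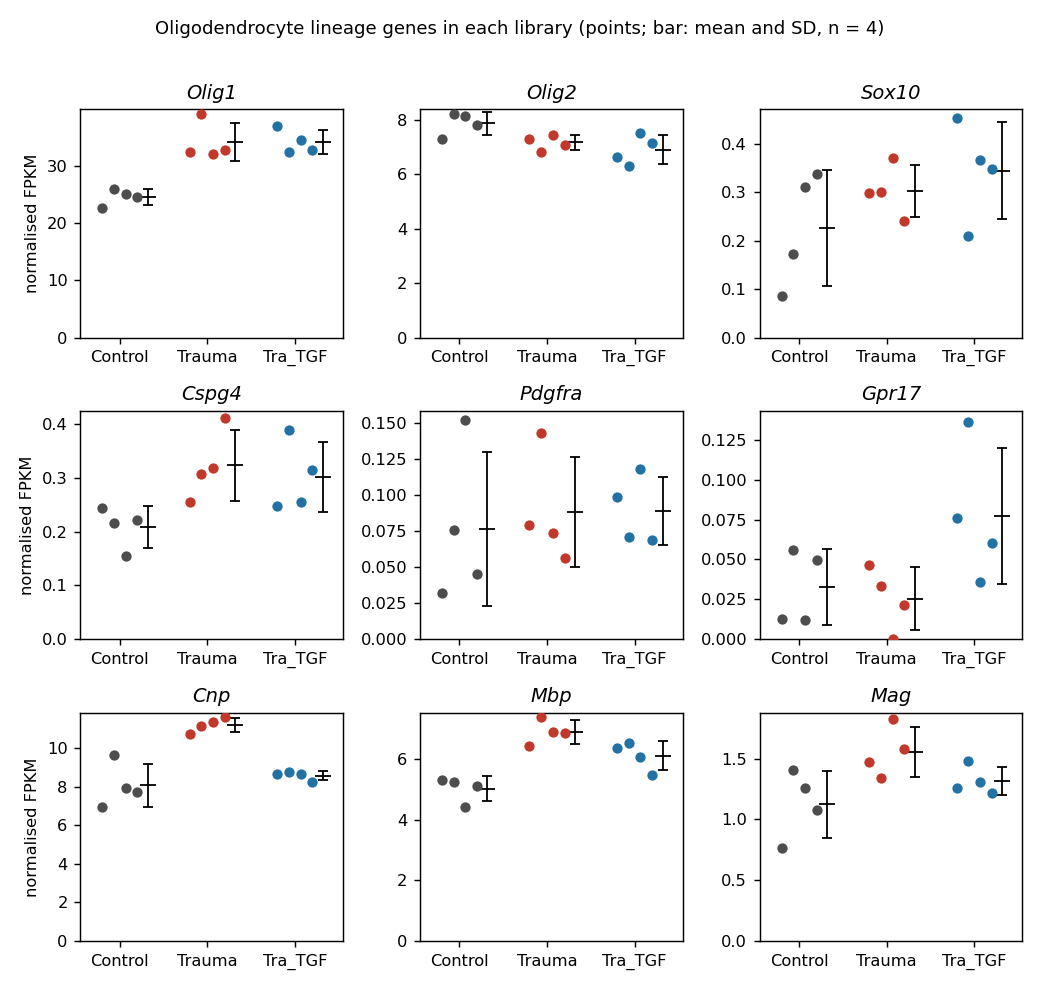
Normalised FPKM (y axis, from 0) of each of the 9 genes in every library of the Control, Trauma and Tra_TGF groups (x axis), with the mean and SD of each group (n = 4). The 4 Trauma libraries lie above the 4 Control libraries for Olig1, Cspg4, Cnp and Mbp, and Cnp in Tra_TGF (8.26 to 8.77 FPKM) lies below Trauma (10.7 to 11.6 FPKM).

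The second comparison asked what TGF-β1 changed in scratched cultures, and Trauma serves as its reference as well as being the treated side of the first. Of the 5 genes fitted only Cnp passed, downward, where 12.3% of all genes tested were called (4.64% higher and 7.63% lower). Over all genes 696 were higher and 1146 lower, a balance that quantile normalization turned to 1125 and 927, and Cnp was called downward there too. Cnp stood at 11.2 ± 0.380 FPKM in Trauma and 8.59 ± 0.222 in Tra_TGF (SD, n = 4) and fell by 23.3% (log2 fold change -0.38 with a standard error of 0.078, limma adjusted p = 0.013). Olig1 stood at 34.1 ± 3.32 FPKM in Trauma and 34.1 ± 2.12 in Tra_TGF (SD, n = 4), and its log2 difference was 0.0056, with a 95% interval of -0.14 to 0.16. With GC correction it was 0.22, outside that interval, and did not pass (limma adjusted p = 0.072, and 0.069 with the replicate block). Mbp stood at 6.90 ± 0.392 and 6.12 ± 0.468 FPKM (SD, n = 4) with overlapping libraries, and its log2 fold change was -0.17 (limma adjusted p = 0.15). The estimates of Mag (-0.22, limma adjusted p = 0.43) and Olig2 (-0.056, limma adjusted p = 0.60) did not pass either, and that of Olig2 turned to 0.11 with GC correction. The median over the 5 genes was -0.17, against 0.0052 over all genes tested.

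Ratios within a library set these responses against each other. Olig1 over Cnp was 2.69 to 3.24 in Control, 2.81 to 3.49 in Trauma and 3.69 to 4.27 in Tra_TGF, above every other library. The log2 ratio was 0.39 higher in Tra_TGF than in Trauma (exact permutation test, two-sided, p = 0.0286, adjusted over the 9 ratio comparisons 0.0514). Mbp over Cnp was 0.591 to 0.661 in Trauma and 0.663 to 0.747 in Tra_TGF. Its log2 difference was 0.21 with the same p-values, while Control libraries spread from 0.546 to 0.760, across both groups. Between Control and Trauma neither ratio differed beyond the spread between libraries (p = 0.89 for Olig1 over Cnp and 0.86 for Mbp over Cnp, exact permutation test).

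**Figure D3:**
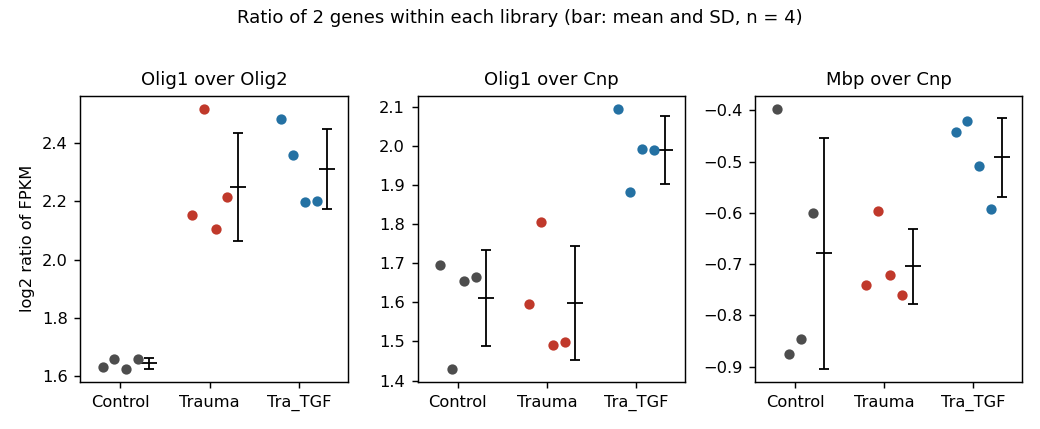
Log2 ratio of FPKM (y axis) for Olig1 over Olig2, Olig1 over Cnp and Mbp over Cnp in each library of the 3 groups (x axis), with mean and SD (n = 4). The Olig1 over Olig2 ratio of the 4 Control libraries lies between 1.63 and 1.66, under all 8 injured libraries, and the Olig1 over Cnp ratio is highest in Tra_TGF.

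Against Control, which is also the reference of the first comparison, the Tra_TGF group held more Olig1 and more Mbp. These were 2 of the 5 genes fitted, where 16.3% of all genes tested were called (6.85% higher and 9.46% lower). Over all genes 1029 were higher and 1420 lower, which became 1340 and 1095 with equal total reads and 1134 and 918 with quantile normalization. Olig1 was 38.9% higher (log2 fold change 0.47 with a standard error of 0.069, limma adjusted p = 0.0012). Mbp was 21.4% higher (log2 fold change 0.28 with a standard error of 0.074, limma adjusted p = 0.026). The call of Mbp was lost in 8 of 28 alternatives, without Control replicate 3, Tra_TGF replicate 1 or Tra_TGF replicate 2 among them (limma adjusted p = 0.070, 0.062 and 0.077). Olig2 had the lowest mean of the 3 groups in Tra_TGF, 6.89 ± 0.531 against 7.86 ± 0.418 FPKM in Control (SD, n = 4), and lay near the threshold (log2 fold change -0.19, limma adjusted p = 0.059). It passed without Control replicate 1 (limma adjusted p = 0.027), without Tra_TGF replicate 3 (0.031) and on FPKM as deposited (0.046). Cnp (log2 fold change 0.10, limma adjusted p = 0.44) and Mag (log2 fold change 0.24, limma adjusted p = 0.38) did not pass. Without Control replicate 1 the log2 fold change of Mag was 0.077. The median over the 5 genes was 0.24, against 0.0031 over all genes tested.

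**Figure D4:**
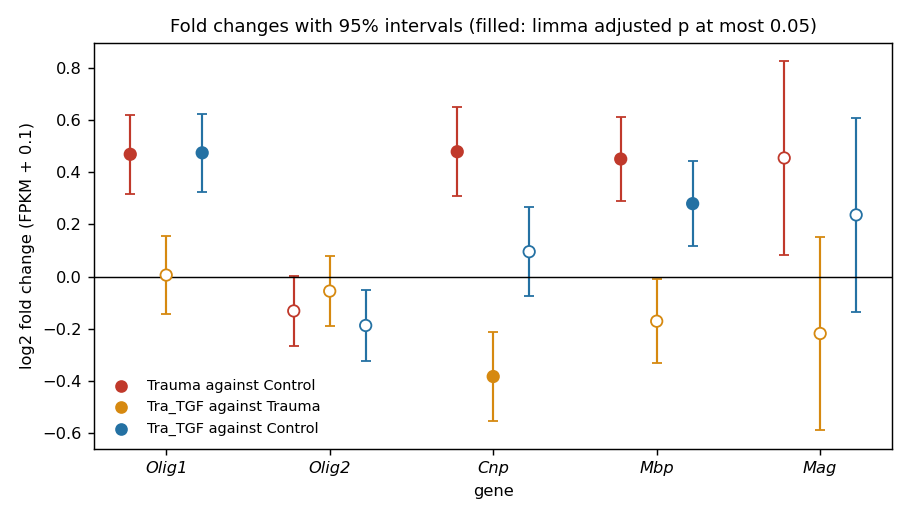
Log2 fold change on the FPKM plus 0.1 scale (y axis) with its 95% interval for the 5 genes over the filter, in the 3 comparisons (colours). Filled points passed a limma adjusted p of at most 0.05: Olig1, Cnp and Mbp with injury, Cnp downward with TGF-β1, and Olig1 and Mbp against Control.

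The 4 genes under the filter were read as counts and compared 1 at a time by a two-sided exact permutation test on FPKM, whose smallest p is 0.0286, with no adjustment over the 12 comparisons. Sox10 (ENSMUSG00000033006, chromosome 15 from 79154908 to 79165240, minus strand) had 4, 9, 15 and 16 reads in Control, 15, 16, 20 and 13 in Trauma, and 21, 10, 18 and 17 in Tra_TGF. The groups overlapped, and the exact permutation p was 0.31, 0.51 and 0.14 in the 3 comparisons in the order given above. Pdgfra (ENSMUSG00000029231, chromosome 5 from 75152292 to 75198215, plus strand), the receptor by which PDGF drives progenitor division, had 5 to 24 reads in Control, 10 to 25 in Trauma and 11 to 19 in Tra_TGF over a gene of 10024 bases. Its exact permutation p was 0.63, 1 and 0.71. Gpr17 (ENSMUSG00000052229) had 1, 5, 1 and 4 reads in Control, 4, 3, 0 and 2 in Trauma, and 6, 11, 3 and 5 in Tra_TGF, with p of 0.63, 0.057 and 0.11 by the same test. No comparison of Sox10, Pdgfra or Gpr17 reached the smallest p. In fits without a filter the log2 fold change of Gpr17 between Tra_TGF and Trauma was 1.69 with voom (unadjusted p = 0.029, adjusted 0.22) and 0.48 with limma on FPKM (unadjusted p = 0.046, adjusted 0.30). Gpr17 shares 188 bases of exon, 3.62% of its length, with Lims2 on the other strand, which was read at 0.244 to 0.516 FPKM. The part of Lims2 in the few reads of Gpr17 was not tested.

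Cspg4 (ENSMUSG00000032911, chromosome 9 from 56865033 to 56899870, plus strand) was the exception among these 4. It read 0.244, 0.215, 0.154 and 0.222 FPKM in Control and 0.255, 0.308, 0.319 and 0.411 in Trauma. In Tra_TGF it read 0.248, 0.388, 0.255 and 0.315, on 29 to 87 reads over all libraries. Both injured groups lay above Control without overlap (exact permutation p = 0.0286 each), and the nearest libraries lay at 0.244 FPKM in Control and 0.248 in Tra_TGF. Groups did not overlap in 12.8% of all genes tested between Trauma and Control and in 18% between Tra_TGF and Control. In fits without a filter Cspg4 did not pass (Trauma against Control, limma adjusted p = 0.56, and 0.20 with voom on the recovered reads).

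A wider list of genes of the lineage, chosen with earlier results of these data known, gave a broader view. The list holds 98 genes that are not members, 24 of progenitors, 12 of committed cells, 36 of myelin and 26 of the signals that steer the lineage, and 70 of them could be tested. Between Trauma and Control 9 rose and 1 fell, which is 14.3% of the tested genes against 5.82% over all genes. Between Tra_TGF and Trauma 4 rose and 6 fell (14.3%, against 12.3% over all genes). That balance turned to 6 higher and 5 lower with quantile normalization and to 5 and 2 with GC correction, and without Trauma replicate 2 or Tra_TGF replicate 2 it was 2 and 2. Between Tra_TGF and Control 16 rose and 6 fell (31.4%, against 16.3%). The median log2 fold changes of the list were 0.13, 0.016 and 0.091 in the same order.

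Among progenitor genes 18 of 24 could be tested and 2 rose with injury (11.1% of those tested, against 5.82% over all genes). These were Kcnip3, a calcium-binding protein, and Chst11, which sulphates chondroitin (log2 fold change 0.26 for both, limma adjusted p = 0.030 and 0.011). With TGF-β1 in place of scratch alone, Tnr, a matrix glycoprotein that progenitors and interneurons make, rose from 12.7 ± 0.281 to 16.2 ± 0.575 FPKM (SD, n = 4, log2 fold change 0.35, limma adjusted p = 0.014). The proteoglycan core protein Vcan also rose (0.30, limma adjusted p = 0.044), and its relative Bcan fell (-0.29, limma adjusted p = 0.021), as did Kcnip3 (-0.47, limma adjusted p = 0.0030). Against Control 5 progenitor genes rose and 3 fell (44.4% of those tested, against 16.3% over all genes). The 3 that fell were Bcan, Kcnip3 and the endocytic adaptor Epn2 (log2 fold changes -0.24, -0.21 and -0.16). Of 28 alternatives, the call of Vcan was lost in 16 and that of Bcan against Trauma in 5, and the falls of Bcan, Kcnip3 and Epn2 against Control were lost in 14, 13 and 16. Astrocytes and neurons express several of these genes too. Nkx2-2, a factor of the progenitors, had 0 to 14 reads, and the sialidase gene Neu4 had none.

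Among genes of committed cells 6 of 12 could be tested. Tns3, a focal adhesion protein of early differentiating oligodendrocytes, rose with injury (log2 fold change 0.48, limma adjusted p = 0.016). Against Control Tra_TGF held more Itpr2, an inositol trisphosphate receptor, which rose from 0.646 ± 0.142 to 1.12 ± 0.153 FPKM (SD, n = 4, log2 fold change 0.73, limma adjusted p = 0.016). The small GTPase Rras2 fell (-0.22, limma adjusted p = 0.022), a call lost in 6 of 28 alternatives, while that of Itpr2 was lost in 3 of 27. Enpp6, the marker of oligodendrocytes that have just formed, had at most 5 reads in any library.

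Among myelin genes 24 of 36 could be tested, and Cd9, Car2 and Apod rose with injury (12.5% of those tested, against 5.82% over all genes). Cd9, a tetraspanin that astrocytes also express, had 9.38 ± 1.18 FPKM in Control, 15.2 ± 1.33 in Trauma and 23.8 ± 1.07 in Tra_TGF (SD, n = 4). Cd9 and Notch1 were the genes of the wider list that rose both with injury and again with TGF-β1, and Cd9 kept both calls in 28 of 28 alternatives (log2 fold changes 0.69 and 0.65, limma adjusted p = 0.00067 and 0.0031). Car2, a carbonic anhydrase, rose from 4.70 ± 0.635 to 7.45 ± 0.979 FPKM with injury (log2 fold change 0.65, limma adjusted p = 0.0066). Apod, a lipocalin, rose from 0.724 ± 0.170 to 1.45 ± 0.291 FPKM (SD, n = 4, log2 fold change 0.92, limma adjusted p = 0.020). Its call was lost without Control replicate 3 or Trauma replicate 2 (limma adjusted p = 0.054 and 0.064).

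Of the genes most specific to mature oligodendrocytes, Mog stood at 4.05 ± 1.01, 4.08 ± 0.201 and 4.03 ± 0.350 FPKM in the 3 groups (SD, n = 4), with log2 differences between -0.02 and 0.04. Myrf, under the filter, had 23 to 38 reads in Control, 39 to 49 in Trauma and 32 to 60 in Tra_TGF. Opalin, Klk6, Aspa and Ninj2, all markers of mature oligodendrocytes, had at most 6 reads in any library. With TGF-β1, the actin-severing protein Gsn fell against Trauma (-0.32, limma adjusted p = 0.032), a call that was lost in 12 of 28 alternatives.

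Of the signals that steer the lineage 22 of 26 could be tested. Notch1, the receptor that holds progenitors undifferentiated, rose from 1.22 ± 0.0723 to 1.99 ± 0.153 FPKM with injury and stood at 2.50 ± 0.180 with TGF-β1 (SD, n = 4). The log2 fold changes were 0.66 (limma adjusted p = 0.0013) and 0.32 (limma adjusted p = 0.041), and the second was lost in 12 of 28 alternatives. Fgfr2, a fibroblast growth factor receptor, rose with injury (0.52, limma adjusted p = 0.012), and so did the growth factor Igf1 (0.46, limma adjusted p = 0.038). Id2, an inhibitor of helix-loop-helix factors such as the Olig proteins, was lower after injury (-0.20, limma adjusted p = 0.045) and lost its call in 16 of 28 alternatives. Its relative Id4 fell with TGF-β1 against Trauma (-0.49, limma adjusted p = 0.018), as did Lingo1, a brake on myelination that neurons also make (-0.24, limma adjusted p = 0.017). These calls were lost in 1 and 4 of 28 alternatives.

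Markers of other cells moved in the same comparisons as the members. Over all genes tested, 5.82% were called between Trauma and Control and 12.3% between Tra_TGF and Trauma. Between Trauma and Control 9 of 11 astrocyte genes tested rose and none fell, among them Gfap, the astrocyte filament protein (log2 fold change 0.87, limma adjusted p = 0.00033). Of 7 microglial genes tested 5 rose and none fell, and C1qb, a complement subunit, was one of them (0.70, limma adjusted p = 0.017). All 7 cell cycle genes tested rose, Top2a by 1.40 on the log2 scale (limma adjusted p = 0.00022). With TGF-β1 against Trauma, 4 of the 11 astrocyte genes fell and 1 rose. Glul, the glutamine synthetase of astrocytes, fell by 0.83 on the log2 scale (limma adjusted p = 2.6e-05). The gene that rose was Aqp4 (0.32, limma adjusted p = 0.018), and Gfap was not called (0.17, limma adjusted p = 0.28). A list for the ganglionic eminence, the ventral forebrain where Olig genes are also read, had 7 genes tested. Of these 1 rose with injury (Sp8, 0.31, limma adjusted p = 0.025), and 2 fell with TGF-β1 (Dlx1 and Dlx2, -0.31 and -0.34). That is 14.3% and 28.6% of the list, against 5.82% and 12.3% over all genes tested. With 7 genes these counts are not read as a movement of the list. A list of 9 genes of pericytes, which are perivascular cells, summed to 4.08 to 4.68 FPKM in Control, 4.46 to 5.36 in Trauma and 6.34 to 7.09 in Tra_TGF. Most of the rise in Tra_TGF was that of Notch3 (means of 1.62, 2.21 and 4.03 FPKM in Control, Trauma and Tra_TGF). Of its 3 genes tested 1 rose with injury (Notch3, log2 fold change 0.43, limma adjusted p = 0.030). The same gene was the only one called between Tra_TGF and Trauma (0.84, limma adjusted p = 0.0026). With 3 genes tested, the sum and these counts are not read as a movement of the list. Between Tra_TGF and Control Notch3 rose and Vtn fell (log2 fold changes 1.27 and -1.03, limma adjusted p = 2.1e-05 and 0.035). The summed FPKM of the 9 members was 43.3 to 51.0 in Control, 59.1 to 66.5 in Trauma and 55.7 to 60.8 in Tra_TGF. Olig1 was the largest part of this sum (means of 24.6, 34.1 and 34.1 FPKM). The 98 genes of the wider list summed to 697 to 734, 713 to 739 and 706 to 730 FPKM, and these groups overlapped. What part the other cells had in these values was not tested.

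**Figure D5:**
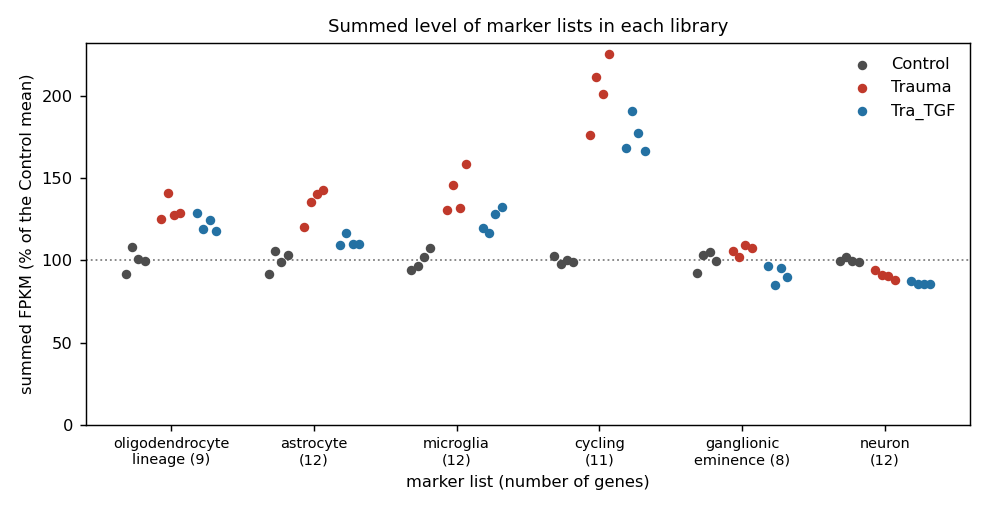
Summed FPKM of each marker list (x axis, with its number of genes) in every library, as a percent of the Control mean (y axis, from 0; colours are groups). The oligodendrocyte lineage (the 9 members only), astrocyte, microglial and cycling lists lie above Control in all Trauma libraries, and the neuronal list lies below.

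The genes whose levels ran most closely with each member over the 12 libraries were found from all genes tested. Pearson's r is given as a description, since the 3 groups differ and so shape it. For Olig1 these were the enkephalin precursor Penk (r = 0.96), the growth factor binding protein Igfbp2 (0.96) and the annexin Anxa2 (0.95). For Olig2 they were Sema4a, Strn4 and Adarb1 (0.95, 0.94 and 0.93). Those nearest to Mbp were 2810459M11Rik, the cyclin Ccnd2 and Cybrd1 (0.96, 0.95 and 0.95). Those nearest to Mag were Sec14l2, Mlec and Acss1 (0.93, 0.92 and 0.92), and to Cnp they were Fam131a, the potassium channel Kcnf1 and the astrocyte membrane protein Mlc1 (0.96, 0.95 and 0.95). No member was among the 3 nearest genes of another.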

How the data were processed

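The authors sequenced polyA RNA as paired-end reads of 150 bases, aligned them with Hisat2 (v2.0.5), counted reads per gene with featureCounts and deposited FPKM with the length of each gene in bases. The submitters' processing notes list the build mm10, and 99.54% of the gene IDs shared with GENCODE M21 (GRCm38) had the same coordinates. FPKM times length gave whole reads for 100% of values (tolerance 0.01), so reads behind each value were recovered.

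Deposited FPKM were rescaled by median-of-ratios factors computed over the genes tested, and 0.1 was added before log2. Genes with a mean of at least 0.5 FPKM (15016) entered 1 limma fit of the 12 libraries (limma 3.58.1, R 4.3.3, eBayes with a trend, Benjamini-Hochberg over all genes, threshold 0.05). Members under the filter had an exact permutation test (two-sided, all 70 assignments of libraries). Simulated data for Trauma against Control had 200 changed genes of 15016 and the same assumed spread for every gene. There 27% were recovered at a log2 change of 0.5 and 84.5% at 1. Spread in the real libraries differs between genes, so these shares are not the power of the fit.

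The members and lists were chosen with earlier results of these data known. Wider-list genes named are, per comparison, up to 5 per direction with the largest change past the threshold and at least 1 FPKM in the higher group, plus Mog and Myrf. A few single genes of the lists are left out of the text. Others were chosen after their values were seen. Genes most like a member are the 3 with the highest Pearson r. The kit is not stated to keep strand. Alternatives covered pseudocount, filter, scaling, fit, trend, block, length, GC, voom on reads, each library left out and a fold threshold. Scaling to equal total reads was added after the data were seen. Counting intervals were not used, and reads without molecular identifiers are not independent molecules. Python 3.11.15 and matplotlib 3.10.9 handled and drew the tables.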

Additional observations from a re-analysis of the deposited data

Results flagged for a closer look

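Of 27 groups of 4 libraries (9 genes in 3 groups), 1 held a library far from the other 3 by Dixon's test at the 95% level, and chance flags about 1 group in 20. Olig1 in Trauma replicate 2 stood at 39.0 FPKM, while the others of the group lay between 32.0 and 32.8. The gap was 0.887 of the range of the group. Without this library Olig1 still differed between Trauma and Control (log2 fold change 0.40, limma adjusted p = 0.0038).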

How the results depend on the processing

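The calls of the 5 members fitted, 15 results in all, kept their direction and their side of the threshold in 400 of 420 refits. The exceptions were estimates that did not pass and changed sign between Tra_TGF and Trauma (Olig1 below 0 in 4 refits, without Trauma replicate 1, 3 or 4 or Tra_TGF replicate 1, over a leave-one-out range of -0.034 to 0.072, and Olig2 at 0.010 with length and 0.11 with GC correction, each with and without the replicate block), Mbp between Tra_TGF and Control (8 lost) and Olig2 (4 gained, 3 between Tra_TGF and Control and 1 between Trauma and Control under GC correction, log2 fold change -0.18). When a log2 change of 1 or more in size was required, no member was called in any comparison (0 of 3, 0 of 1 and 0 of 2), and 0, 0 and 1 genes of the wider list were. Members called between Tra_TGF and Control numbered 1 in place of 2 without a filter, in a fit of the 2 groups alone, with length correction with or without the replicate block, and with GC correction. Leaving out 1 library gave 3 members between Trauma and Control, 1 between Tra_TGF and Trauma, and 1 to 3 between Tra_TGF and Control. For the wider list it gave 6 to 12, 4 to 11 and 12 to 25, with the fewest without Trauma replicate 2, without Trauma replicate 2 or Tra_TGF replicate 2, and without Control replicate 3 or Tra_TGF replicate 2. The wider list numbered 6 in a fit of 2 groups and 19 with voom (Trauma against Control, 10 in the main result), and 13 without a filter and 12 in a fit of 2 groups (Tra_TGF against Control, 22). Between Tra_TGF and Trauma it numbered 6 in place of 10 without a filter, with length correction, with the replicate block, and with the block beside length or GC correction. The cause was not tested. Of the 4 members under the filter, the 2 comparisons that reached the smallest exact permutation p (0.0286) became 0 in limma and in voom fits without a filter. Same-numbered libraries did not deviate together (r of deviations from -0.0088 to 0.076, 0 of 12 pairs over 0.1), so the numbers pair nothing in the design, and the replicate block changed no call of a member. Of 25 results for named genes of the wider list, 10 kept their call in every alternative. Over all genes, the calls fell from 874, 1842 and 2449 to 464 without Trauma replicate 4, and to 642 and 1438 without Tra_TGF replicate 2. Without a filter they numbered 562, 990 and 1629. GC correction gave 818 between Tra_TGF and Trauma.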
